A study of Mus musculus with 16 samples.

Results

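The 10 genes described here encode cytokine receptor chains of lymphocytes: Il7r, Il2rg, Il2rb, Il4ra, Il6ra, Il6st, Il21r, Il10ra, Il27ra and Crlf2. They were chosen by name as chains of receptors that lymphocytes use, with earlier results of these data known. All 10 were matched by symbol to 1 Ensembl gene each among the 38293 genes counted. Their RNA was measured in 2 mouse lymphoid tumour lines, with 3 RNA-Seq libraries each. P6D4 is labelled as SCID.adh murine thymic lymphoma at stage DN3, an early thymocyte stage that precedes a complete T cell receptor. 70Z/3 is a lymphoblast line labelled pre-B. No treatment, time or genotype beyond the cell line is given for either. Each lineage is represented by 1 tumour line, so lineage and line cannot be told apart, and nothing states that the 3 libraries of a line came from separate cultures. The p-values therefore rest on differences among libraries that may be only technical.

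Cytokine receptors of this family have no enzyme activity of their own. A ligand brings together a private chain and a shared chain, each carrying a JAK kinase, and the kinases phosphorylate STAT transcription factors. The common gamma chain, encoded by Il2rg, is shared by the receptors for IL-2, IL-4, IL-7, IL-9, IL-15 and IL-21, and gp130, encoded by Il6st, is shared by those for IL-6, IL-11, IL-27, LIF and oncostatin M. IL-7 is the cytokine on which early B and T cell precursors depend in the mouse, and its private chain Il7r also pairs with Crlf2 to bind TSLP. Whether a cell could assemble a given receptor depends on all of its chains, so the chains were compared one by one and then as receptors.

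The libraries held 45481949 to 54815145 counts in genes. The lines matched their labels by the lineage markers. All 8 pre-B markers (such as Pax5 and Ebf1) were lower in P6D4, with a summed level of 0.759 to 1.32 CPM (counts-per-million of the TMM-scaled library total) against 1867 to 1919 CPM in 70Z/3. All 8 early thymocyte markers (such as Thy1 and Cd3e) were higher in P6D4, at 3752 to 3845 against 127 to 131 CPM. Lck and Tcf7 made up most of the 70Z/3 sum, with means of 95.2 and 32.6 CPM there. Markers of other cell types were measured beside them. The 8 myeloid markers summed to 27.7 to 34.2 CPM in P6D4 and 21.2 to 23.0 CPM in 70Z/3, the 6 NK and cytotoxic markers to 3.77 to 5.09 and 0.249 to 0.289 CPM, the 6 stromal markers to 3.78 to 4.49 and 0.497 to 0.936 CPM, and the 4 erythroid markers to 0.577 to 0.636 and 0.866 to 0.953 CPM. Itgam made up most of the myeloid sum in P6D4, with a mean of 29.1 CPM against 7.07 CPM in 70Z/3, and Lyz2 ran the other way, at 1.96 against 12.3 CPM. Gzmb and Eomes had no count in either line, nor had Col3a1 and Dcn. In a bulk library, fewer cells that express a gene and less RNA per cell cannot be told apart.

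All 10 chains differed between the lines, 5 higher and 5 lower in P6D4, and the 3 libraries of one line lay apart from the 3 of the other for each of them (edgeR quasi-likelihood test, adjusted p under 0.05). This has to be read against the whole table: 86.5% of 13750 genes tested were called, 43.3% as higher and 43.2% as lower. The libraries of the lines did not overlap for 87.4% of the genes tested. The shares for the 10 chains are close to what the whole table shows. All 10 chains passed the filter on low counts, Il2rb and Il6ra through P6D4 alone. Passing through P6D4 alone made a call as higher in P6D4 likely for these 2 before any test. Against a 2-fold difference (glmTreat of edgeR) Il2rb and Il6ra were higher and 4 chains lower, where 16.6% and 18.6% of all genes were. The filter thus favoured the call of Il2rb and Il6ra, though it did not set the size of their differences. The median size of the log2 fold change was 1.40 over the 10 chains and 0.67 over all genes tested, and the signed medians were -0.32 and 0.01. The counts could not be set per transcript length, so levels are compared between lines for a gene and not between genes.

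**Figure D1:**
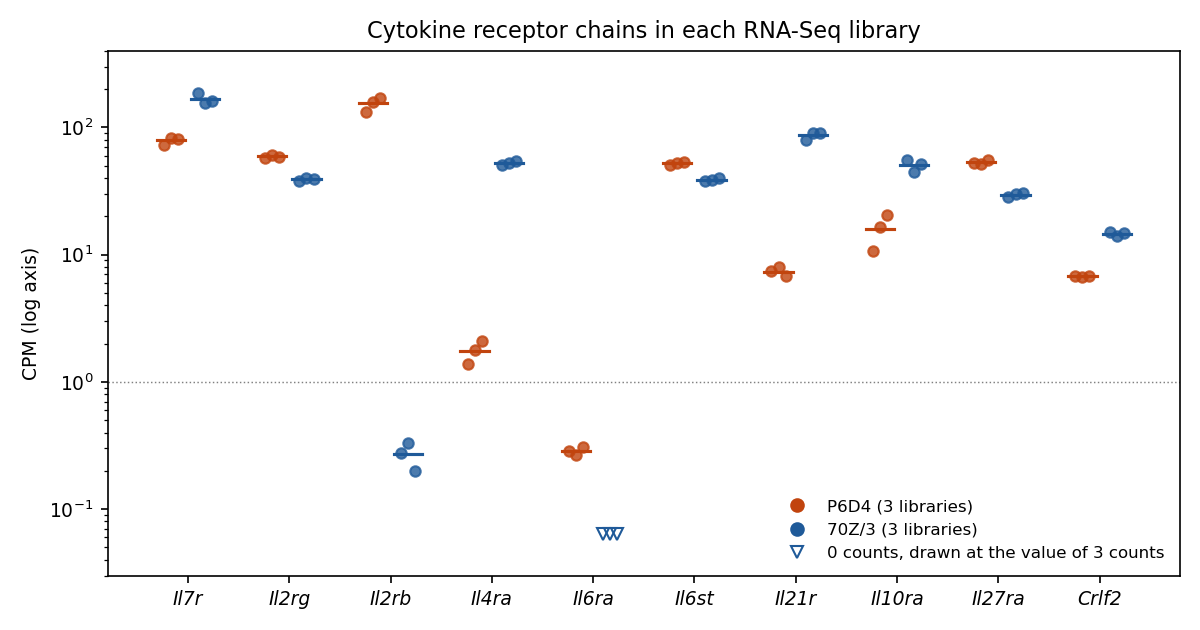
Level of each chain in each of the 6 RNA-Seq libraries, in CPM on a log axis, with orange points for P6D4, blue points for 70Z/3 and a line at the mean of 3 libraries. Il2rb spans the widest gap (154 against 0.269 CPM), Il6ra has no count in 70Z/3 (triangles, drawn at the value of 3 counts), and the dotted line marks 1 CPM.

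The shared chains were present in both lines and differed little. The common gamma chain Il2rg (ENSMUSG00000031304, chrX:101264385-101268255, as all positions here in GRCm38.p6 from RefSeq) stood at 57.6, 61.1 and 58.7 CPM in the 3 P6D4 libraries and at 37.6, 40.3 and 39.0 CPM in 70Z/3. The P6D4 libraries were all above the 70Z/3 libraries, by a log2 difference of 0.60 ± 0.04 (SE; edgeR, adjusted p of 1.18e-08). Il6st, the signalling chain gp130 (ENSMUSG00000021756, chr13:112464070-112506860), measured 51.1, 52.1 and 53.9 CPM in P6D4 and 37.8, 38.6 and 40.0 CPM in 70Z/3, again without overlap. Its difference on the log2 scale was 0.43 ± 0.04 (SE; edgeR, adjusted p of 3.35e-07), the smallest of the 10 chains. Neither shared chain passed the test against a 2-fold difference. Among the other tested genes, those nearest to Il2rg over the 6 libraries by Euclidean distance of log2 CPM were Rttn, Cdk2ap2 and Nt5c, at distances of 0.135, 0.143 and 0.144.

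Il7r, the IL-7 binding chain, was lower in P6D4. It stood at 72.8, 82.9 and 81.6 CPM in P6D4 and at 187, 154 and 160 CPM in 70Z/3, so that every 70Z/3 library was above every P6D4 library. The difference on the log2 scale was -1.08 ± 0.07 (SE; edgeR, adjusted p of 2.77e-09) and the test against a 2-fold difference gave an adjusted p of 0.126 (glmTreat), short of a call. Il7r and Il2rg were also compared within libraries. The log2 ratio of Il7r to Il2rg counts was 0.34, 0.44 and 0.47 in P6D4 and 2.31, 1.94 and 2.03 in 70Z/3. The difference of -1.68 between the line means separated all libraries, with p = 0.1 in a two-sided exact permutation test, the smallest value that 3 libraries against 3 can give (adjusted p = 0.1 over 4 ratios).

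Il7r lies on chromosome 15 (ENSMUSG00000003882, chr15:9506159-9529941), and its promoter is shown because the chain is the one on which IL-7 and TSLP responses both rest. The window on the minus strand, chr15:9529827-9530126 (RefSeq, GRCm38.p6), runs from 250 bases before to 50 bases after the start listed for the promoter, which lies 65 bases inside the outer bound of the gene. Capitals mark a match to TTCNNNGAA, the core that STAT dimers prefer, which begins 142 bases before that listed start. The promoters of 7 of the 10 chains were in the table used. The other six of these held no match to TTCNNNGAA, and all 7 lacked the wider-spaced form with 4 N in place of 3. Of 32851 promoter windows of all genes, 8.3% held the first and 6.95% the second. Both motifs read the same on either strand. A match is a stretch of letters and not a measured binding site.
Il7r: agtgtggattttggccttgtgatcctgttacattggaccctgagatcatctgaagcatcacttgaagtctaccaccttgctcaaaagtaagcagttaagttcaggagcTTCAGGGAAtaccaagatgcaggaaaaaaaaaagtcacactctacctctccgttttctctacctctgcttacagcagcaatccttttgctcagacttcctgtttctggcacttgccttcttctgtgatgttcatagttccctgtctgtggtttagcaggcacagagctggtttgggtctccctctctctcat

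Crlf2, the chain that joins Il7r in the TSLP receptor (ENSMUSG00000033467, chr5:109554709-109559128), was lower in P6D4 by nearly the same factor as Il7r. It measured 6.78, 6.68 and 6.79 CPM in P6D4 and 14.96, 14.1 and 14.7 CPM in 70Z/3. The groups did not overlap, and the difference on the log2 scale was -1.11 ± 0.07 (SE; edgeR, adjusted p of 1.54e-09). Against a 2-fold difference the adjusted p was 0.0481 (glmTreat), close to the threshold. The log2 ratio of Crlf2 to Il2rg counts was -3.09, -3.19 and -3.11 in P6D4 and -1.33, -1.52 and -1.41 in 70Z/3, a difference of -1.71 that also separated all libraries (exact permutation p = 0.1, two-sided). Crlf2 and Il2rg are not chains of the same receptor. Il7r, the partner of Crlf2, differed by -1.68 relative to Il2rg, so the ratio shows no change of balance within the TSLP receptor.

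**Figure D2:**
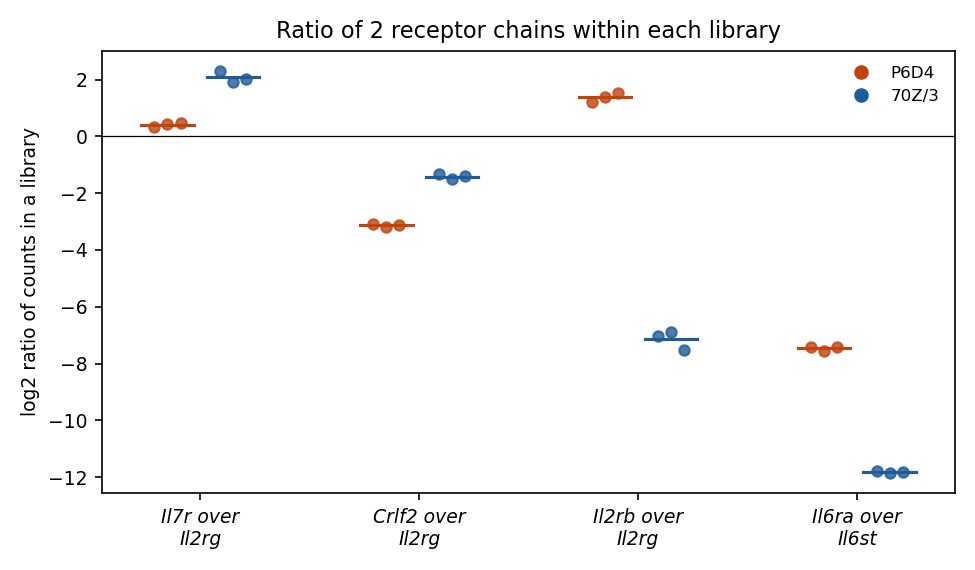
Log2 ratio of the counts of 2 receptor chains in each library, with orange points for P6D4, blue points for 70Z/3 and lines at the means of 3 libraries. Il7r and Crlf2 were lower relative to Il2rg in P6D4, Il2rb was higher by 8.52, and the Il6ra values of 70Z/3 rest on 0 counts plus a pseudocount of 0.5.

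Of the 10 chains, the widest difference was that of Il2rb, the signalling beta chain of the receptors for IL-2 and IL-15. It stood at 133, 159 and 171 CPM in P6D4 against 0.277, 0.332 and 0.200 CPM in 70Z/3, where the 3 libraries held 13, 16 and 9 counts. The difference on the log2 scale was 9.14 ± 0.15 (SE; edgeR, adjusted p of 1.22e-15), and 6.91% of the genes tested had a larger difference in size. Il2rb lies on chromosome 15 like Il7r (ENSMUSG00000068227, chr15:78479256-78511621), and the median log2 fold change of the 482 tested genes of that chromosome was 0.90, while the medians of the chromosomes of the other members lay between -0.36 and 0.15. Il7r went against that median and Il2rb exceeded it. The part of the chromosome in these values was not tested. Cytotoxic cells also use Il2rb, and their marker Nkg7 averaged 4.11 CPM in P6D4 against 0.221 CPM in 70Z/3, while Prf1 had 8, 24 and 15 counts in P6D4 and none in 70Z/3. Of the other 4 markers of that list, Ncr1 had 6, 3 and 7 counts in P6D4 and none in 70Z/3, Klrk1 none in P6D4 and 2, 1 and 3 in 70Z/3, and Gzmb and Eomes none in either line. Their part in the result was not tested.

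Il2ra, Il15ra and Il9r, which complete receptors with Il2rb or Il2rg, were higher in P6D4, while Il7r, Il4ra and Il21r, which also pair with Il2rg, were lower. Il2ra, the alpha chain that raises the affinity for IL-2 and marks DN2 and DN3 thymocytes, averaged 54.1 ± 2.73 CPM (SD, n = 3) in P6D4 against 10.9 ± 0.388 CPM in 70Z/3, a log2 difference of 2.31 ± 0.05 (SE; edgeR, adjusted p of 6.81e-14). Il15ra, which presents IL-15 to cells with Il2rb and Il2rg, was at 55.0 ± 0.744 and 15.3 ± 0.786 CPM (SD, n = 3). Il9r, the private chain for IL-9, averaged 99.7 ± 7.58 CPM (SD, n = 3) in P6D4 against 0.128 ± 0.0527 CPM in 70Z/3, where its counts were 4, 9 and 5. Its difference on the log2 scale was 9.57 ± 0.13 (SE; edgeR, adjusted p of 1.47e-16). Il2ra, Il15ra and Il9r all passed the test against a 2-fold difference. Il9r had passed the filter on low counts through P6D4 alone, which favoured its call.

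Il4ra and Il21r, the private chains for IL-4 and IL-21, were the most strongly lowered of the 10 chains in P6D4. Il4ra, which also serves IL-13 when paired with Il13ra1, measured 1.39, 1.77 and 2.09 CPM in P6D4 and 50.8, 52.2 and 54.5 CPM in 70Z/3. Its difference on the log2 scale was -4.92 ± 0.09 (SE; edgeR, adjusted p of 3.70e-15), a level 30.2-fold lower in P6D4. Il21r measured 7.37, 7.93 and 6.79 CPM in P6D4 and 79.3, 90.4 and 90.9 CPM in 70Z/3. It differed by -3.56 ± 0.07 (SE; edgeR, adjusted p of 8.14e-15), or 11.8-fold. No P6D4 library came near the 70Z/3 range for either gene. Il13ra1, the second chain of the type II IL-4 receptor, had no count in P6D4 and 162, 161 and 190 counts in 70Z/3, so that P6D4 was at least 63.8-fold lower against a floor of 3 counts per library.

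Il4ra and Il21r are neighbours on chromosome 7 (ENSMUSG00000030748, chr7:125552271-125579474, and ENSMUSG00000030745, chr7:125603252-125634397), separated by 23.8 kb with no other RefSeq gene between them. Of the 8 protein-coding genes within 250 kb of the pair, the pair included, 6 had enough counts to test. The flanking genes did not share the size of the difference. Gtf3c1, on the Il21r side, averaged 230 CPM in P6D4 against 204 CPM in 70Z/3, a log2 difference of 0.17 ± 0.03 (SE; edgeR, adjusted p of 0.000161), and D430042O09Rik beyond it was not called (-0.02 ± 0.05). On the Il4ra side, Nsmce1 was lower (-1.11 ± 0.04) and Kdm8 higher by 0.61 ± 0.07 (SE). These 4 flanking genes were taken for their position.

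**Figure D3:**
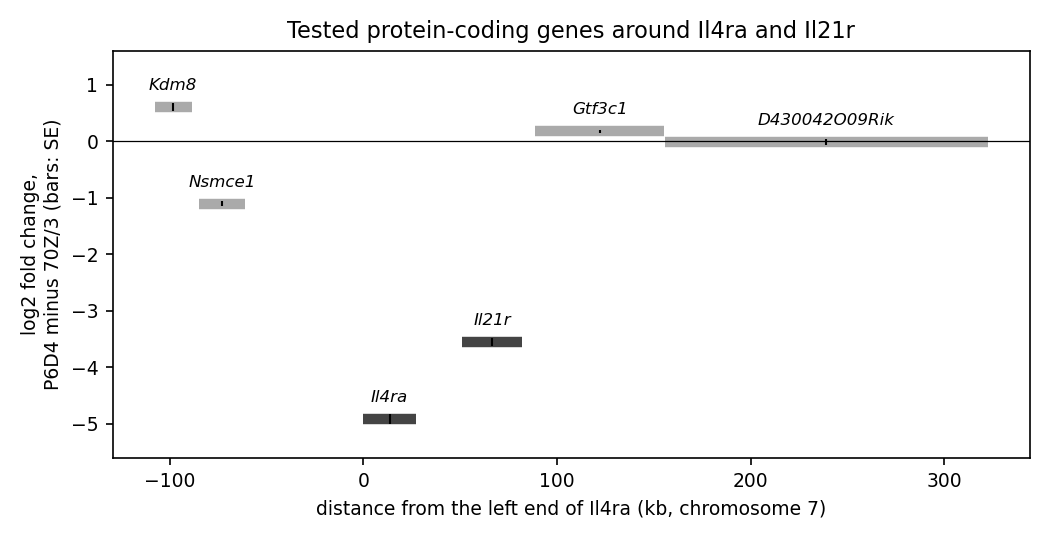
Log2 fold change (P6D4 minus 70Z/3, vertical bars SE) of the 6 tested protein-coding genes around Il4ra and Il21r against their distance from the left end of Il4ra in kb, with horizontal bars spanning each gene. The adjacent Il4ra and Il21r lie at -4.92 and -3.56, and the 4 flanking genes between -1.11 and 0.61.

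The promoters of this adjacent pair are shown side by side because both genes lie on the plus strand and differed in the same direction (RefSeq, GRCm38.p6, chr7:125552021-125552320 for Il4ra and chr7:125603179-125603478 for Il21r). The listed start is the gene bound for Il4ra and lies 177 bases inside it for Il21r. Capitals in Il4ra mark an octamer, ATGCAAAT, the element bound by POU factors of the Oct family. It begins 139 bases before the listed start. The octamer was searched on both strands after the sequences had been seen. It was in 1.74% of all promoter windows and in none of the other six windows of the receptor chains, Il21r included. GC made up 62% of the Il4ra window and 56% of the Il21r window.
Il4ra: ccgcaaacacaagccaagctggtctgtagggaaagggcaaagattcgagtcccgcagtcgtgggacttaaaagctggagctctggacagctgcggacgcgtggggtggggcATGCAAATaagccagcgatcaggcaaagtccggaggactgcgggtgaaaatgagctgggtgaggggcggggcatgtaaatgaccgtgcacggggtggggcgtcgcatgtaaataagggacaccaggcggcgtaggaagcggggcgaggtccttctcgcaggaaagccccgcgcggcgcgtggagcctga
Il21r: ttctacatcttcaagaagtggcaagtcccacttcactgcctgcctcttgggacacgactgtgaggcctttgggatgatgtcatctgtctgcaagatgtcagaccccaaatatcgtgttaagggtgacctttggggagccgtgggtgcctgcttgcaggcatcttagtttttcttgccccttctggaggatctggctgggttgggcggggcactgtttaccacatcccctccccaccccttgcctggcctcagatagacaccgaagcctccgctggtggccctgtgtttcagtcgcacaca

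Il6ra and Il27ra, the members that pair with gp130, were both higher in P6D4, while Lifr, another private chain of gp130 receptors, was lower. Il6ra, the IL-6 binding chain (ENSMUSG00000027947, chr3:89869324-89913196), was low in both lines, with 16, 14 and 15 counts in P6D4 (0.288, 0.266 and 0.308 CPM) and no count in any 70Z/3 library. It was called higher in P6D4 (edgeR adjusted p = 8.09e-06). Against a floor of 3 counts per library it was at least 4.47-fold higher. The log2 ratio of Il6ra to Il6st was -7.42, -7.56 and -7.41 in P6D4, and in 70Z/3 it rests on 0 counts. Il27ra, the IL-27 binding chain (ENSMUSG00000005465, chr8:84030286-84042600), was well covered in both lines, at 52.4, 51.6 and 55.1 CPM in P6D4 and 28.1, 30.1 and 30.5 CPM in 70Z/3. The groups lay apart, with a log2 difference of 0.84 ± 0.05 (SE; edgeR, adjusted p of 7.16e-10), not called against a 2-fold difference. The bounds of Il27ra overlap those of Palm3, which had 9, 9 and 10 counts in P6D4, and whether strand was used in counting is not stated in the labels or file headers.

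Il10ra, the IL-10 binding chain (ENSMUSG00000032089, chr9:45253837-45269149), was lower in P6D4 and the least even of the members there. It measured 10.7, 16.4 and 20.3 CPM in P6D4 and 55.8, 44.9 and 51.2 CPM in 70Z/3. The 3 P6D4 libraries stayed below those of 70Z/3. The difference on the log2 scale was -1.69 ± 0.16 (SE; edgeR, adjusted p of 1.94e-07), and it passed the test against a 2-fold difference (adjusted p = 0.000209). Its partner Il10rb, which is shared with other receptors, averaged 9.76 ± 0.251 CPM (SD, n = 3) in P6D4 against 7.64 ± 0.511 CPM in 70Z/3, a log2 difference of 0.35 ± 0.08 (SE; edgeR, adjusted p of 0.000601).

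**Figure D4:**
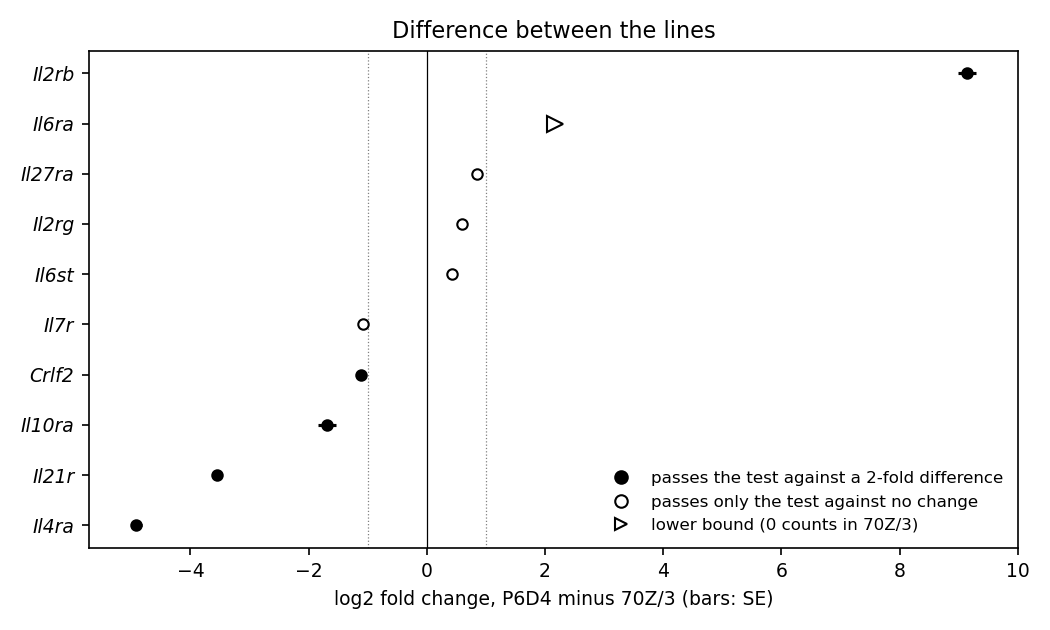
Log2 fold change of each chain, P6D4 minus 70Z/3, with SE as bars. Filled points passed the test against a 2-fold difference (Il2rb, Crlf2, Il10ra, Il21r and Il4ra), open points passed the test against no change (Il27ra, Il2rg, Il6st and Il7r), and the triangle is the lower bound for Il6ra, which also passed the 2-fold test.

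Receptors were then read from their chains, with a chain taken as detected at 1 CPM or more in all 3 libraries of a line. RNA of all chains does not show a receptor at the surface. The 14 receptors considered each use a chain among the 10 members. Of these, 10 had all chains detected in P6D4 and 8 in 70Z/3, 7 of them in both. The 7 were those for IL-7, TSLP, IL-4 (type I), IL-21, IL-27, IL-10 and IL-11. In P6D4 alone, 3 were complete: the intermediate-affinity receptor for IL-2 and IL-15, the high-affinity IL-2 receptor, and the IL-9 receptor. In 70Z/3 these lacked Il2rb or Il9r, while Il2rg was detected. In 70Z/3 alone, the type II IL-4 receptor was complete, since P6D4 had no count of Il13ra1. Receptors without a member chain are not in these counts. By the same rule, Epor and both chains of the IL-12 receptor (Il12rb1 and Il12rb2) were detected in P6D4 alone. Ifnlr1 was detected in 70Z/3 alone, and Il10rb in both lines. These were looked up after their values were seen. The receptors for IL-6, LIF and oncostatin M were complete in neither line, although Il6st was present in both. Their private chains were Il6ra, Lifr (0 counts in P6D4 and 27, 24 and 30 in 70Z/3) and Osmr (0 counts in all libraries). With 1 CPM replaced by 5 CPM, 8 and 6 receptors remained, because Il4ra in P6D4, Il13ra1 in 70Z/3 and Il11ra1 in both lay between these levels. Il11ra1 averaged 1.82 ± 0.214 CPM (SD, n = 3) in P6D4 against 1.38 ± 0.0434 CPM in 70Z/3, and near-identical copies of the gene in the mouse genome make its counts uncertain. It was called higher in P6D4 (edgeR, adjusted p of 0.0181) but lost the call without P6D4 replicate 1 (0.069), 70Z/3 replicate 2 (0.0547) or 70Z/3 replicate 3 (0.054).

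**Figure D5:**
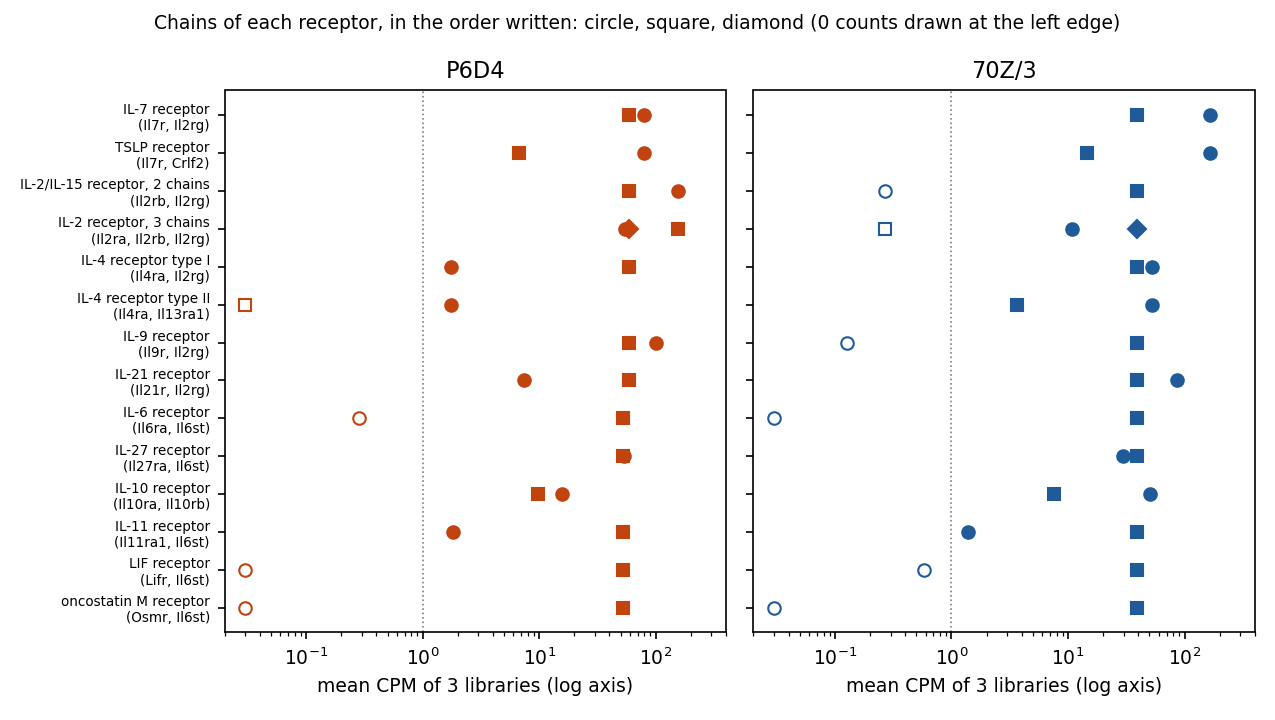
Mean CPM of the chains of 14 receptors in P6D4 (left) and 70Z/3 (right) on a log axis, with a filled symbol where all 3 libraries reached 1 CPM (dotted line) and chains at 0 drawn at the left edge. Rows with an open symbol are incomplete, 4 in P6D4 and 6 in 70Z/3. Levels of different chains are not set per length.

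Beyond the 10 members, 34 further chains of the same receptor families were listed, of which 20 could be tested. In P6D4 9 of these were raised, 9 were lowered and 2 did not pass, shares close to the 43.3% and 43.2% of all genes. Of the 20, 8 passed the filter through 1 line alone. Their median log2 fold change was 0.06. By fitted fold change the 2 most raised were Epor and Il9r. Epor, the erythropoietin receptor, had 204, 281 and 251 counts in P6D4 and none in 70Z/3, at least 73.5-fold higher. The 2 most lowered were Il3ra, the IL-3 binding chain (no count in P6D4, at least 86.2-fold lower), and Il13ra1; fitted values against 0 counts give no firm order. Csf2ra, the GM-CSF binding chain, named after its values were seen, had 1 count in P6D4 and 115, 103 and 92 in 70Z/3, a ratio of 347 with a 95% counting interval of 61.8 to 13740. The interferon receptor chains of the list are also named after their values were seen. Ifnar1, Ifnar2 and Ifngr1 differed by 0.23 or less in size on the log2 scale. Ifngr2 averaged 5.60 ± 0.510 CPM (SD, n = 3) in P6D4 against 32.3 ± 0.818 CPM in 70Z/3. Ifnlr1, a chain of the receptor for type III interferons, had 0, 3 and 1 counts in P6D4 and 571, 519 and 511 in 70Z/3.

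Of 19 genes for JAK kinases, STAT factors and their SOCS inhibitors, 17 could be tested. In P6D4 11 of these were raised and 6 lowered, and against a 2-fold difference 1 and 3. The 1 raised over 2-fold, Socs3, had passed the filter on low counts through P6D4 alone, which favoured its call. Over all genes 86.5% were called, 43.3% and 43.2% by direction, and 16.6% and 18.6% over 2-fold. The median log2 fold change of the 17 genes was 0.40. Socs3, an inhibitor of gp130 signalling, had 762, 731 and 647 counts in P6D4 and 1 count in all in 70Z/3, a ratio of 1913 with a 95% counting interval of 343 to 75610. That count came from 70Z/3 replicate 2; without this library the fitted log2 fold change went from 10.46 to 12.4, against 0 counts. Stat3, the main STAT of gp130 and IL-10 receptors, was higher by 0.91 ± 0.05 (SE). Stat4, used by the IL-12 receptor, averaged 0.824 ± 0.121 CPM (SD, n = 3) in P6D4 against 101 ± 6.29 CPM in 70Z/3, and Socs2 was lower (log2 fold change -4.04 ± 0.11, SE). The chains of the IL-12 receptor went the other way from Stat4. Il12rb1 averaged 12.2 CPM in P6D4 against 0.270 CPM in 70Z/3, and Il12rb2 79.5 against 3.65 CPM. These chains are named after their values were seen. The kinases carried by the common gamma chain receptors differed in direction, and both are named after their values were seen. Jak3, which binds Il2rg, averaged 72.3 ± 11.5 CPM (SD, n = 3) in P6D4 against 47.0 ± 2.56 CPM in 70Z/3, higher by 0.62 ± 0.09 (SE; edgeR, adjusted p of 1.83e-05). Jak1, which binds the private chains, was at 198 ± 2.67 and 680.0 ± 33.8 CPM (SD, n = 3), a difference of -1.78 ± 0.04 (SE; edgeR, adjusted p of 3.06e-14).

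Of 24 ligand genes, 14 had too few counts to test. Of the 10 tested, 6 were higher in P6D4, 3 lower and 1, Osm, was not called, where 43.3% and 43.2% of all genes were higher and lower. Of the 10, 8 passed the filter only through the line in which they were high, so the counts say little about the list. Of the tested ligands, Il10, Tslp, Il7 and Il11 had RNA in a line that also held their receptor chains. Il7 and Il11 did not reach 1 CPM in all 3 libraries of that line. Il10 had 2184, 2433 and 2099 counts in P6D4 and 1 count in each 70Z/3 library, a ratio of 2001 with a 95% counting interval of 685 to 9708. Tslp was at 1.22 ± 0.0832 CPM in P6D4 (SD, n = 3) and had no count in 70Z/3, at least 18.9-fold higher. Il7 ran the other way, with 52, 51 and 33 counts in 70Z/3 (1.11, 1.06 and 0.73 CPM) and none in P6D4, at least 16.8-fold lower. Il11, named after its values were seen, had 37, 25 and 24 counts in P6D4 and none in 70Z/3, at least 8.48-fold higher. Il12a, a subunit of IL-12, had 1048, 988 and 936 counts in 70Z/3 and 2 in all in P6D4. For Il12a the receptor chains were not complete in 70Z/3, where Il12rb1 averaged 0.270 CPM. No count of Il6, Il9, Il15, Il21 or Il3 was found in either line; these ligands are named after their values were seen.

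The zinc finger protein Miz1, a transcription factor whose gene is Zbtb17, was mapped once per line by ChIP-Seq. None of the 10 chains had a Miz1 summit within 1 kb of its listed start in either list, where 0.941% of 21883 protein-coding genes did in the P6D4 list and 2.88% in the 70Z/3 list. The count stayed at 0 within 5 kb, where 3.10% of the protein-coding genes had a summit in the P6D4 list and 5.15% in the 70Z/3 list. A count of 0 among 10 chains is close to these shares. The nearest peak found in both lists lay upstream of Il4ra, at chr7:125532187-125532944 in P6D4 and chr7:125532718-125533072 in 70Z/3. Its summits were 19.7 and 19.4 kb from the start. The authors' fold over background was 7.69 and 7.28 there, beside medians of 6.54 and 7.28 over all peaks of the lists. In the P6D4 list, summits also lay inside Il6ra (10.24 kb from the start) and Il6st (8.77 kb). In the 70Z/3 list, summits lay 9.69 kb from the start of Il7r, outside the gene, and inside Il2rb (15.9 kb from the nearer gene end). After removal of duplicates 2.07 M of 60.8 M tags remained in P6D4 and 4.48 M of 30.9 M in 70Z/3, per the file headers. What binding these numbers could miss was not measured.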

How the data were processed

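RNA-Seq was analysed in 3 libraries of P6D4 and 3 of 70Z/3, and Miz1 ChIP-Seq in 1 library per line; the other ChIP samples were not used here. The deposited RNA files hold raw read counts for each Ensembl gene. Per the submitters' processing notes the tools included HTSeq, TopHat2 2.0.10 and Bowtie2 2.10, with mm10 and GRCm38 as builds; the kit keeps strand, per the labels' protocols. In each file 5 summary lines that name no gene were left out; reads outside genes were 14.5 to 16.0% of uniquely assigned reads. Per the file headers, the authors called peaks with MACS 2.0.10.20120913 at a q-value of 0.01 and give per peak a pileup signal and a fold (ratio) over background. The deposited score of a q-value is written with decimal commas.

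Counts were scaled with TMM and fitted over all genes with edgeR 4.0.16 (filterByExpr, quasi-likelihood, Benjamini-Hochberg adjusted p under 0.05, cell line as the only term); R was 4.3.3. SE was obtained as the absolute log2 difference over the root of the F statistic; where counts are few it is too small. A gene at 0 in a line was given a bound against 3 counts per library (0.0575 CPM in P6D4, 0.0642 CPM in 70Z/3), and for 1 to 3 counts in all the ratio is printed beside its exact 95% interval (scipy 1.17.1); both cover counting error only. Ratios of chains used log2 of counts plus 0.5. Counting noise alone did not account for the spread between libraries of a line (chi-square over its degrees of freedom, 2.56 to 14.7). The fit was tested on simulated data in which few genes changed and all had the same spread. In these data 86.5% of genes were called, so that test does not give the error rate here. Symbols were found for 36345 genes. A gene start was taken from RefSeq promoter windows (GRCm38.p6), or from both gene ends where none was listed.

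The members and lists were chosen with earlier results of these data known. Named were all members, the listed partner chains of their receptors, the 2 most raised and 2 most lowered genes of each list, and the 3 genes nearest to Il7r and to Il2rg (those of Il7r are not reported here); other names are marked. Alternatives were other scalings, no filter, DESeq2 1.42.0, limma 3.58.1 (voom), a replicate block, a 2-fold test, and each library left out.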

Additional observations from a re-analysis of the deposited data

How the results depend on the processing

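All 10 chains kept their direction in each of 14 alternative fits per chain (other scalings, no filter, DESeq2, voom, a replicate block, a 2-fold test, each library left out). Of these 140 fits 136 kept the call, and the other 4 were the 2-fold tests of Il7r, Il2rg, Il6st and Il27ra. With the 2-fold test (glmTreat), 2 chains were higher and 4 lower in P6D4, the JAK, STAT and SOCS genes counted 1 and 3, and all genes 2277 and 2561. The numbered replicates of the lines did not deviate together (correlations of -0.16, -0.14 and 0.05 for numbers 1, 2 and 3). Libraries of unlike number gave -0.14 to 0.22. With 3 libraries per line these correlations cannot exclude a shared batch, and no pairing is stated. With the replicate block 5 chains were higher and 5 lower, as without it, and all genes counted 5867 and 5847. The ratio of Il6ra to Il6st rests on 0 counts in 70Z/3, and its difference between the lines went from 4.36 to 2.50 with a pseudocount of 2 counts. Among the other named genes, Il11ra1 lost its call with DESeq2 (adjusted p of 0.0856). Depth limits Il6ra, whose 70Z/3 level is known only to be under the floor, and Miz1 peaks, which have no replicate.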
